A study of Sus scrofa with 36 samples.

Results

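The genes described here encode the proteins of the cytosolic ribosome of the pig (Sus scrofa). They were taken by symbol: RPL or RPS followed by a number and, where present, a suffix A, X or L with a further number, and in addition RPLP0, RPLP1, RPLP2 and RPSA. No expression value entered the choice. The rule found 82 of the 20683 genes in the tables: 42 of the large subunit, 31 of the small subunit, 3 of the stalk and 6 paralogs (RPL3L, RPL7L1, RPL10L, RPL22L1, RPL26L1 and RPS27L). RPL41 and RPL39L were not analysed here, and RPL36AL falls outside the rule. By RefSeq (Sscrofa11.1), whose names matched all 82 genes, the genes are spread over many chromosomes. Chromosome 1 carries 12 of them and chromosome 6 carries 11. RPL18, counted on chromosome 1, has 2 RefSeq entries, of which the first was taken. Chromosome X carries 4, namely RPL10, RPL36A, RPL39 and RPS4X.

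A ribosome has a small subunit, which reads the messenger RNA, and a large subunit, which joins amino acids and to which the stalk proteins RPLP0, RPLP1 and RPLP2 recruit translation factors. Most of these proteins are normally present in a single copy per subunit. In mammals most of their messengers begin with an oligopyrimidine tract whose translation follows mTOR signalling. RPL5 and RPL11 bind the 5S ribosomal RNA and, when free, the p53 regulator MDM2. The paralogs replace or resemble a parent protein: in the mouse RPL10L stands in for RPL10 in male germ cells and RPL3L for RPL3 in striated muscle, and in human cells RPS27L is induced by p53.

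The study measured bulk RNA in 36 libraries of 11 groups, around pig induced pluripotent stem cells (iPSCs) that its title calls free of transgenes. A first set of 15 libraries held pig fibroblasts (4 libraries) and the undifferentiated clones 1, 2 and 3, each a single clone. Clone 1 is labelled PiPS-EP1 minusPD c4 p11 (3 libraries), clone 2 PiPS-EP5 minusPD minusA83 c12 p10 (4 libraries), and clone 3 PiPS-EP5 minusPD minusA83 c18 p15 (4 libraries). A second set of 21 libraries, 3 per group, came from a further single clone, clone 8. Its undifferentiated cells (day 0) had their mouse feeder layer removed, which the labels do not say of clones 1 to 3. From it were derived mesendoderm on day 1 in the medium E8A100ch3, presomitic mesoderm (PSM) on day 2 in S1LDN, somite cells on day 3 in S2LDN, endothelial cells on day 6, beating cardiomyocytes on day 9 and neural progenitors on day 24. No label says that the libraries of a group are separate cultures, so a p-value here speaks of the scatter among these libraries and may reflect technical variation alone. In bulk RNA, fewer cells of a type and less RNA per cell cannot be told apart.

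The libraries held 1845333 to 69879325 estimated counts, at least 24314241 in clones 1 to 3 and at most 9727315 in clone 8. The fibroblast libraries fell into a deep pair, libraries 1 and 2 (36738189 and 26120236 counts), and a shallow pair, libraries 3 and 4 (7508792 and 6877298). The deposited counts per TPM (a level scaled for transcript length and library size) also separated them. This quantity for the short gene RPS29, relative to the longer RPL4, was 0.120 in libraries 1 and 2 and 0.174 in libraries 3 and 4 and in clone 8. In clones 1 to 3 it was 0.168. Summed over each list, pluripotency, fibroblast, PSM and endothelial markers were highest where the labels place them. Some single markers were higher elsewhere: SOX2 (241 and 275 TPM) and DLL1 (82.1 and 69.3 TPM) in the libraries labelled neural progenitor 2 and 3, and KDR (162 TPM) in mesendoderm library 1. Somite markers did not set the somite libraries apart: 5 of them summed to 25.3 to 32.2 TPM there and to 33.0 to 43.2 TPM in endothelial libraries. The 4 blood cell markers summed to at most 2.90 TPM in any library. In the library labelled cardiomyocyte 2, TNNT2 was at 4.28 TPM and PAX6 at 254 TPM, and 5 cardiac markers summed to 11.8 TPM and 5 neural markers to 4384 TPM. In the library labelled neural progenitor 1, TNNT2 was at 5155 TPM and PAX6 at 0.190 TPM, with sums of 14781 TPM (cardiac) and 93.4 TPM (neural). Both go against their labels. The labels were kept, and results that rest on these libraries are given with and without them.

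The ribosomal protein genes together held between 9.97% (lowest library) and 21.5% (highest library) of all TPM. In the fibroblasts the share was 14.7% and 16.3% in libraries 1 and 2 and 9.97% and 10.5% in libraries 3 and 4, a mean of 12.9% ± 3.12 (SD, n = 4). Among undifferentiated lines it was 12.6% ± 0.469 in clone 1 (n = 3), 14.3% ± 1.08 in clone 2 (n = 4), 14.96% ± 0.878 in clone 3 (n = 4) and 14.9% ± 0.602 in clone 8 (n = 3). All libraries of these lines lay between 10.5% and 16.3%, the inner values of the fibroblast pairs being 10.5% and 14.7%. Along the somite route of clone 8 the share was 16.8% ± 1.505 on day 1, 19.0% ± 1.01 on day 2 and 14.6% ± 1.07 on day 3. The day 2 libraries were all above the libraries of days 0, 1 and 3. Endothelial cells had the highest share, 20.6% ± 0.871, though their lowest library (19.8%) fell below the highest PSM library (19.9%). The labelled cardiomyocytes had 16.2% ± 0.317, and 16.2% without library 2. The labelled neural progenitors had 12.9% ± 2.68, and 11.5% without library 1, which held 15.7%. No test was run on these shares, and a share of TPM rises in one set of genes when others fall.

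**Figure D1:**
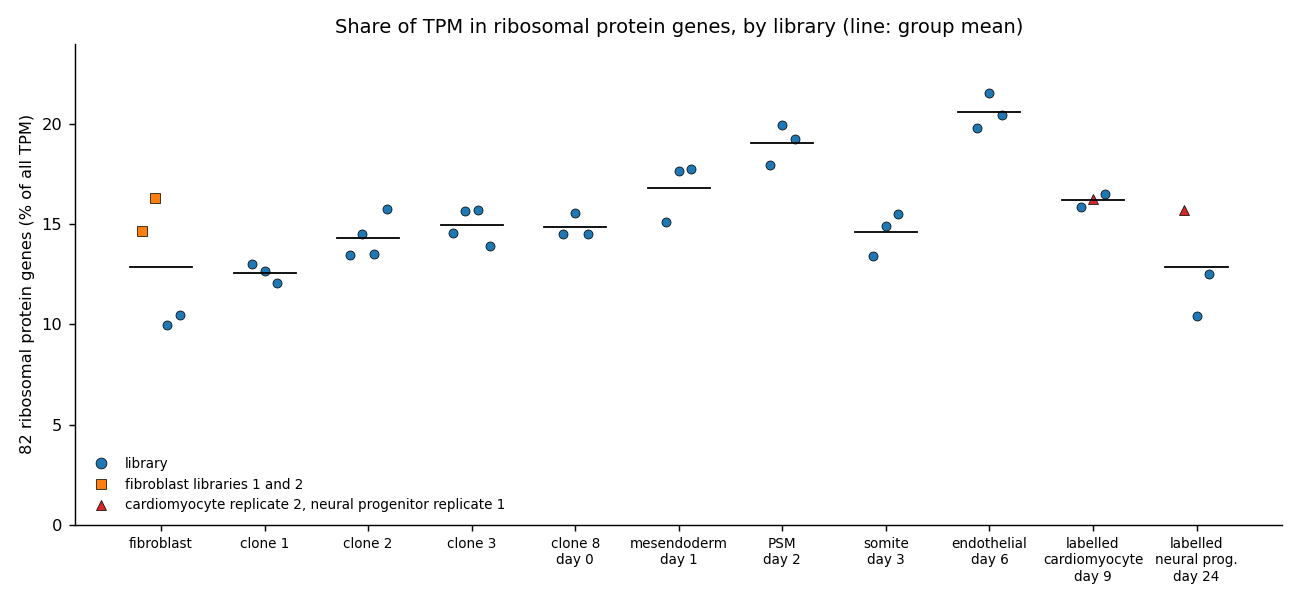
Summed TPM of the 82 ribosomal protein genes as percent of all TPM (y axis), 1 point per library, for the 11 groups (x axis). The line is the group mean, squares are fibroblast libraries 1 and 2, and triangles are the 2 libraries whose markers go against their labels. The fibroblast libraries split into 14.7% and 16.3% against 9.97% and 10.5%, and the endothelial libraries have the highest mean, 20.6%.

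The members were not present in equal amounts. Of the 82 genes, 75 had at least 100 TPM in every group mean, and 70 reached 1000 TPM in at least 1 group mean. The highest over the 11 group means was RPL23 (chr12:23279965-23285538), a large subunit protein at the face that meets the small subunit, at 9669 TPM. RPS6, the substrate of the S6 kinases, followed at 5165 TPM, then RPL5 (chr4:124359786-124367612) at 4804 TPM, RPS24 (chr14:80473867-80480818) at 4279 TPM and RPS7 at 4123 TPM. At the low end were RPL3L (chr3:40004907-40016702) at 1.19 TPM, RPL10L (chr1:176603177-176604116) at 3.70 TPM, RPS21 (chr17:61763606-61764823) at 107 TPM, RPS27L (chr1:108881330-108886334) at 155 TPM and RPL7L1 (chr7:37940549-37948258) at 210 TPM. All of these but RPS21, a small subunit protein, are paralogs.

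How far a member moved between groups also differed from gene to gene. Among members above 10 TPM, RPS21 had the widest range, its highest group mean being 29.1 times its lowest. RPS29 (chr1:179454923-179456847) followed with a ratio of 18.7, then RPL22L1 (chr13:109495771-109499495) with 8.74, RPS20 (chr4:75762209-75763449) with 5.95 and RPL26L1 (chr16:51267492-51276692) with 5.39. These means pool the fibroblast pairs: the high fibroblast means of RPS21, RPS29 and RPS20 came from libraries 1 and 2. The smallest ratios were 1.55 for RPL21 and 1.63 for RPS19, but single fibroblast libraries of RPL21 ran from 545 to 2039 TPM. The group with the highest mean was endothelial for 34 members, PSM for 12, fibroblast for 11 and clone 3 for 11. The lowest mean was in fibroblasts for 30 members, in clone 1 for 24 and in neural progenitors for 14.

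The fibroblast pairs differed for most ribosomal protein genes, and this bears on every comparison with fibroblasts. The comparison of the pairs was added after the data had been seen. By the quasi-likelihood test of edgeR, adjusted over all genes tested, taking adjusted p-values below 0.05 whatever the fold (the rule for every call below), 41 of 82 members were higher in libraries 1 and 2, against 12.7% of all genes. Another 10 members were lower, against 10.1% of all genes. The median log2 difference was 0.44 over the members and 0.10 over all genes. Without library 3 the count of calls was 33 in place of 51.

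RPS21 was at 1326 and 1584 TPM in libraries 1 and 2 and at 17.5 and 49.0 TPM in libraries 3 and 4, a log2 difference of 5.25 ± 0.67 (SE; adjusted p = 4.68e-05). RPS29, a zinc-binding protein of the small subunit head, was at 3342 and 4621 TPM against 343 and 303 TPM. RPS20, another head protein, was at 8481 and 9497 TPM against 978 and 1178 TPM. In these 3 genes every value of the deep pair was far above both values of the shallow pair. RPL27 was at 1123 and 1129 TPM against 135 and 167 TPM, a log2 difference of 2.88 ± 0.19 (adjusted p = 2.18e-07). RPS27 was at 2748 and 3004 TPM against 597 and 587 TPM. Lower in libraries 1 and 2 were, among others, RPL22L1 (log2 difference -1.40 ± 0.33), RPL39, a small protein of the exit tunnel (-1.32 ± 0.26), RPS9 (-1.09) and RPL26L1 (-0.81 ± 0.15). Across the 81 members with counts on day 0 of clone 8, the length implied by those counts and the log2 difference of the pairs had a Spearman rho of -0.24. The median log2 difference was 0.82 over the 20 members with the shortest implied length and 0.34 over the 20 with the longest. Depth, implied length and these levels move together between the pairs, and the part of the first 2 in the levels was not tested.

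Against fibroblasts, members differed in both directions in the undifferentiated clones 1 to 3. With all 4 fibroblast libraries, 32 of 82 members were higher in the clones, against 38.6% of all genes, and 28 were lower, against 35.9% of all genes. Both member counts are near the background share. The median log2 difference of the members was 0.14, beside 0.11 over all genes. By role, 15 large subunit members rose and 13 fell, 13 small subunit members rose and 12 fell, none of the 3 stalk genes rose and 2 fell, and 4 of the 6 paralogs rose and 1 fell. On log2(TPM + 1) with limma the split was 35 higher and 20 lower, a count given without the share of all genes in that fit.

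The direction of that balance depended on the fibroblast pair. Against libraries 1 and 2 alone, 31 members were higher and 34 lower, beside 38.3% and 34.7% of all genes, and the median was 0.02. Against libraries 3 and 4 alone, 49 were higher and 13 lower, beside 36.7% and 29.6% of all genes, and the median was 0.55. Of the 60 calls, 38 (63.3%) stood in the same direction against both pairs, 26 higher and 12 lower. Over all genes tested 79.3% did. Called in opposite directions against the pairs were 9 members, among them RPL6, RPL9, RPL21, RPL26, RPL27, RPS20 and RPS25. That is 10.98% of the members and 1.37% of all genes.

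Among the members higher in the clones against each pair, RPL26L1, a near copy of the large subunit protein RPL26, had the largest difference. It was at 35.2, 40.0, 73.9 and 67.0 TPM in fibroblast libraries 1 to 4, at 263 to 275 TPM in clone 1, at 256 to 293 TPM in clone 2 and at 278 to 313 TPM in clone 3. Every clone library was above every fibroblast library, by a log2 difference of 2.37 ± 0.17 (adjusted p = 7.46e-10). RPL30 (chr4:38702220-38720420) was at 461 to 670 TPM in fibroblasts and at 1258 to 2628 TPM in the clones, a log2 difference of 1.63 ± 0.17 (adjusted p = 1.06e-07). RPL5, of the 5S particle, was at 1195, 1379, 1943 and 2092 TPM in fibroblasts and at 4046 to 6711 TPM in the clones. Its log2 difference was 1.51 ± 0.17 (adjusted p = 2.33e-07), and the groups did not overlap. RPS23, a decoding-centre protein of the small subunit, was at 597 to 1104 TPM against 1753 to 3018 TPM, and RPL7L1, which acts in ribosomal RNA processing, at 61.2 to 131 TPM against 221 to 326 TPM. Their log2 differences were 1.48 ± 0.20 and 1.47 ± 0.17. RPL23, the most abundant member, was at 5195 to 6372 TPM in fibroblasts and at 10944 to 17351 TPM in the clones, a log2 difference of 1.36 ± 0.12 (adjusted p = 1.16e-08). For these 6 genes the log2 difference was between 1.17 and 2.86 against either pair.

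Lower in the clones against each pair were 12 members. RPL28 (chr6:59556586-59559337) was at 2144, 2295, 1064 and 1070 TPM in fibroblasts and at 378 to 656 TPM in the clones, a log2 difference of -1.82 ± 0.17 (adjusted p = 2.77e-08). It was -2.19 against libraries 1 and 2 and -1.14 against libraries 3 and 4. RPL29 was at 835 to 1321 TPM against 285 to 595 TPM, with a log2 difference of -1.48 ± 0.14, and RPS15 had -1.58 ± 0.26, with -2.15 against libraries 1 and 2 and -0.35 against libraries 3 and 4. For RPL28 and RPL29 no clone library reached the lowest fibroblast library. The stalk gene RPLP1 was at 3864, 4339, 3061 and 3087 TPM in fibroblasts and at 1174 to 1940 TPM in the clones. Its log2 difference was -1.25 ± 0.10 (adjusted p = 4.61e-09). The other stalk genes stood apart from it: RPLP0, which anchors RPLP1 and RPLP2, had -0.41 ± 0.16 and RPLP2, which did not pass the test, 0.28 ± 0.15. RPL10, which joins the large subunit late in its assembly, fell by 1.27 ± 0.13 on the log2 scale.

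The largest falls in the fit with all 4 fibroblast libraries rested on libraries 1 and 2. RPS21 was at 13.3 to 92.8 TPM in the clones, far below 1326 and 1584 TPM but around the 17.5 and 49.0 TPM of libraries 3 and 4. Its log2 difference was -3.74 ± 0.63 (adjusted p = 4.05e-05) with all 4 libraries, -4.63 against libraries 1 and 2 and 0.59 against libraries 3 and 4 (adjusted p = 0.35). RPS20 went from -2.05 to 1.00 and RPL27 from -2.19 to 0.67 in the same way. RPS29 stayed lower, at -4.03 and -0.72. RPL11, the partner of RPL5, was -1.33 against libraries 1 and 2 and 0.12 against libraries 3 and 4, so that the 2 proteins of the 5S particle did not move together. RPL22L1 was -0.74 ± 0.27 with all 4 libraries and 0.18 against libraries 1 and 2 alone.

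**Figure D2:**
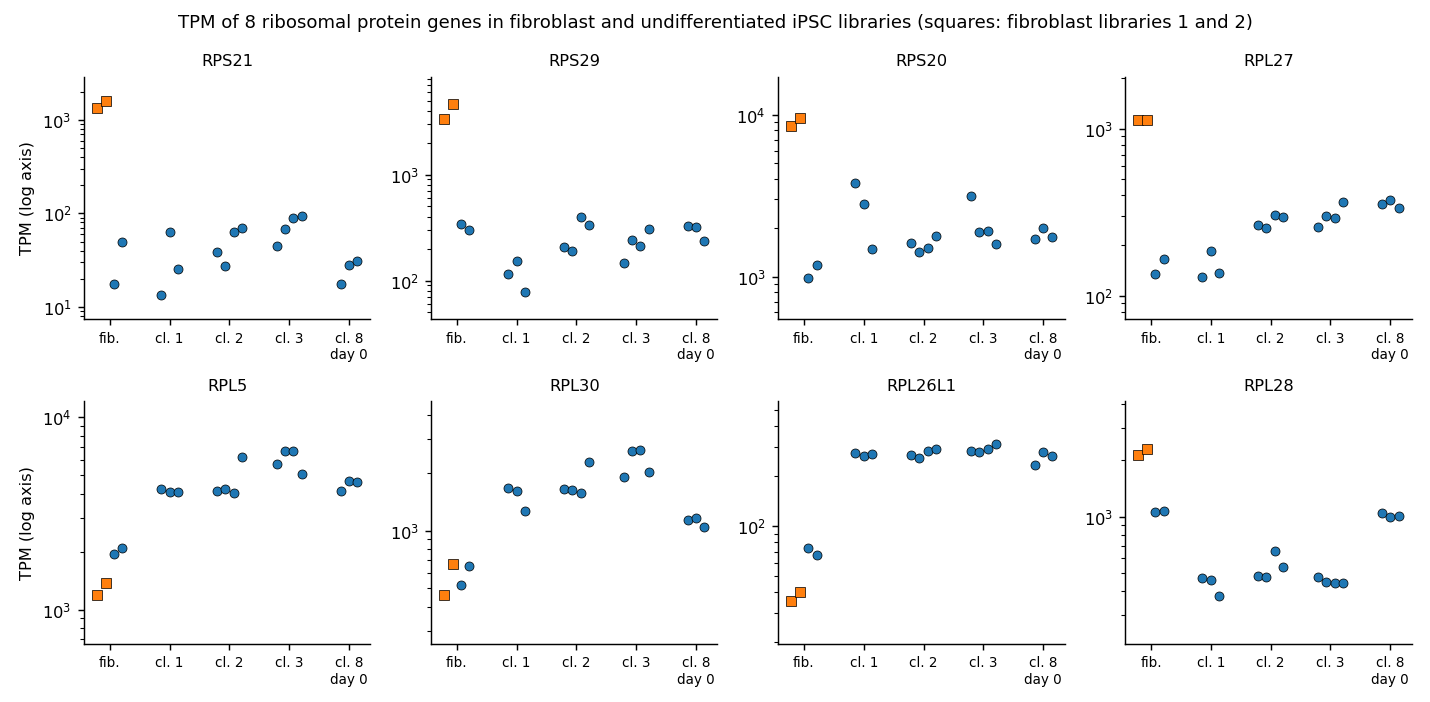
TPM (y axis, log scale) of 8 ribosomal protein genes in the fibroblast libraries, the libraries of clones 1 to 3 and clone 8 on day 0 (x axis), 1 point per library. Squares are fibroblast libraries 1 and 2. RPS21, RPS29, RPS20 and RPL27 separate the fibroblast pairs, RPL26L1, RPL5 and RPL30 are higher in every iPSC library than in every fibroblast library, and RPL28 is lower in every iPSC library, with clone 8 just below fibroblast libraries 3 and 4.

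Clone 8 on day 0 was compared with fibroblast libraries 3 and 4, which have its implied length ratio and like depth, a comparison added after the data had been seen. Of 82 members 8 were higher, against 27.8% of all genes, and 3 were lower, against 22.7%. Without the 2 libraries whose markers go against their labels, which enter this fit only through the shared spread, 30 were higher (37.3% of all genes) and 7 lower (30.2%). The median was 0.26 in either fit, beside 0.23 and 0.22 over all genes. RPL26L1 was again highest by difference among the calls, at 232, 280 and 265 TPM on day 0 against 73.9 and 67.0 TPM, a log2 difference of 1.53 ± 0.25 (adjusted p = 6.55e-05). RPS2, of the small subunit's messenger entry region, was at 546, 535 and 481 TPM against 158 and 173 TPM, with 1.30 ± 0.23. The lower members were RPS24 (-0.73 ± 0.26), RPL23A, an exit tunnel protein (-0.56 ± 0.18), and RPL28 (-0.42 ± 0.17). RPL28 was at 1047, 998 and 1016 TPM on day 0 and at 1064 and 1070 TPM in the fibroblast pair, without overlap but close. Leaving out fibroblast library 3 left 5 calls, and leaving out fibroblast library 4 or day 0 library 1 left 7.

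The other genes of ribosome production were counted in lists fixed with earlier results of these data known. Beside them, 38.6% of all genes were higher in clones 1 to 3 than in fibroblasts and 35.9% were lower. For nucleolar ribosome assembly 30 of 32 genes were higher in clones 1 to 3 than in fibroblasts and 1 was lower (NOP10, -0.84 ± 0.35), with a median log2 difference of 2.12. Examples were NCL (nucleolin), at 3.99 ± 0.20, and TSR1, a small subunit assembly factor, at 3.46 ± 0.18. Of 11 RNA polymerase I genes 9 were higher and none lower, and of 76 mitochondrial ribosomal protein genes 49 were higher and 7 lower. Of 10 regulators 3 were higher and 6 lower, with a median of -0.70. Of 13 translation factors with an oligopyrimidine start 7 were higher and 3 lower. The 3 cytosolic ribosomal proteins outside the symbol rule were all lower, with RACK1, on the small subunit head, at -1.35 ± 0.14. In clone 8 on day 0 against fibroblast libraries 3 and 4, 29 of 32 nucleolar genes were higher, against 27.8% of all genes. None was lower, against 22.7%, and none of the 3 ribosomal proteins outside the rule passed the test.

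Between the undifferentiated clones few members passed the test. Clone 1 against clone 2 gave no higher member and 2 lower, beside 4.84% of all genes lower: RPS3A (log2 difference -0.52 ± 0.15, adjusted p = 0.036) and RPL10L. RPS3A was at 1822, 1806 and 1930 TPM in clone 1 and at 2627 to 3450 TPM in clone 2, without overlap. Clone 1 against clone 3 gave 1 higher member, RPLP0, beside 3.12% of all genes, and 5 lower, beside 3.58%, among them RPL38, RPS13, RPS28 and RPL10L. RPLP0 was at 3186, 2852 and 1892 TPM in clone 1 and at 1730, 1147, 1067 and 1181 TPM in clone 3, a log2 difference of 1.04 ± 0.21 (adjusted p = 0.0083). RPL38, which in the mouse embryo is needed for the axial skeleton, was at 441, 457 and 448 TPM in clone 1 and at 485, 1139, 1160 and 1048 TPM in clone 3, so the first clone 3 library stood near clone 1. Its log2 difference was -1.1 ± 0.26 (adjusted p = 0.018). Clone 2 against clone 3 gave no call by edgeR beside 4.22% of all genes, with 10 members at an unadjusted p under 0.05 1 call by DESeq2 and none by limma.

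RPL10L was at 0, 0 and 0.0900 TPM in clone 1, at 1.44 to 2.93 TPM in clone 2 and at 0.460 to 6.72 TPM in clone 3. Its reads may be shared with RPL10, so these low values are uncertain. The counts of calls between clones moved with the fibroblasts in the model. With the fibroblast pairs as separate groups the calls were 18 for clone 1 against clone 2 (17.9% of all genes), 27 for clone 1 against clone 3 (13.6%) and 6 for clone 2 against clone 3 (9.80%). All 8 calls of the first fit were among them. Clone 1 against clone 3 gave 2 calls without clone 1 library 2 or 3 or clone 3 library 2 or 3. Clone 1 against clone 2 gave none without clone 1 library 2 or 3 and 1 without clone 2 library 1, 2 or 4. Without clone 2 library 4, clone 2 against clone 3 gave 3 calls.

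In clone 8 nearly all members had values above day 0 on day 1, most had them on day 2, and on day 3 the median was back near day 0. From day 0 to day 1, 80 of 82 members had a log2 difference above 0, with a median of 0.42 beside -0.02 over all genes, but 4 passed the test, against 5.53% of all genes, all higher. These were RPL13A (chr6:54551772-54568752), RPS24, RPS13 and RPL10L. RPL13A was at 2322, 2566 and 2289 TPM on day 0 and at 3242, 3619 and 3535 TPM on day 1, a log2 difference of 0.82 ± 0.24 (adjusted p = 0.033). RPS24 was at 2651, 2935 and 2943 TPM and then at 3311, 4318 and 4781 TPM, with 0.79 ± 0.25, and RPS13 at 827, 783 and 763 TPM and then at 996, 1176 and 1103 TPM, with 0.70 ± 0.20. In each of these 3 genes the lowest day 1 library was above the highest day 0 library, and mesendoderm library 1 was the lowest of its group. Without the 2 libraries whose markers go against their labels 40 members were higher, against 17.9% of all genes. Without mesendoderm library 1 the first fit gave 6 calls, and without any other of the 6 libraries compared it gave 1.

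From day 1 to day 2 no member passed the test by edgeR, beside 7.39% of all genes in either direction. At an unadjusted p under 0.05 there were 2, and DESeq2 and limma called none. The median was 0.18. Without the 2 doubted libraries 2 members were higher, against 12.3% of all genes. Day 2 was also set directly against day 0 by TPM, with no test. All PSM libraries were above all day 0 libraries for 56 of 82 members, against 18.8% of all genes at a mean of at least 1 TPM. They were below all day 0 libraries for 3 members, against 37.8% of those genes.

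From PSM to somite nearly all members had lower values, though a minority passed the test. Of 82 genes 81 had a log2 difference under 0, with a median of -0.62 beside 0.05 over all genes, and 18 were lower by the test, against 11.2% of all genes. No member was higher. By role, 10 of the 42 large subunit genes, 7 of the 31 small subunit genes, none of the 3 stalk genes and 1 of the 6 paralogs were lower. All somite libraries were below all PSM libraries by TPM for 66 members, against 21.5% of all genes at a mean of at least 1 TPM.

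RPL22L1, the paralog of RPL22, had the largest fall among the calls. It was at 449, 416 and 447 TPM on day 2 and at 199, 223 and 268 TPM on day 3, a log2 difference of -1.16 ± 0.18 (adjusted p = 0.00017). RPSA (chr13:24072551-24081536), a small subunit protein also known as the laminin receptor precursor, was at 3423, 3906 and 3943 TPM and then at 2205, 2253 and 2394 TPM, with -0.96 ± 0.28 (adjusted p = 0.021). RPL38 was at 966, 1114 and 941 TPM and then at 555, 645 and 693 TPM, with -0.92 ± 0.29. RPL4 and RPL13A had -0.76 ± 0.23 and -0.72 ± 0.24. In RPL22L1, RPSA, RPL38 and RPL13A the PSM and somite libraries did not overlap. RPL5, at 5489, 6151 and 6511 TPM and then at 3673, 4686 and 4592 TPM, had -0.73 ± 0.40 and did not pass. The stalk gene RPLP1, at 4111, 4353 and 4099 TPM and then at 3546, 4187 and 4219 TPM, had -0.31 ± 0.32 and overlapped.

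Without the 2 doubted libraries 72 members were lower from day 2 to day 3, against 23.0% of all genes, and all 18 calls were among them. Without PSM library 1, 2 or 3 the calls were 12, 5 and 5, and without somite library 1, 2 or 3 they were 2, 7 and 10. Between day 3 and day 0 the median was -0.02. Here 2 members were higher, against 12.2% of all genes (RPS27 with 0.60 ± 0.21 and RPL10L), and 3 lower, against 11.3% (among them RPL22L1 with -0.53 ± 0.18 and RPS20 with -0.50 ± 0.17). Without the 2 doubted libraries these counts were 4 (25.6% of all genes) and 12 (23.8%). The 5 calls dropped to 1 without day 0 library 1 or 2 or somite library 1, to 2 without somite library 2, and to 3 without day 0 library 3 or somite library 3.

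**Figure D3:**
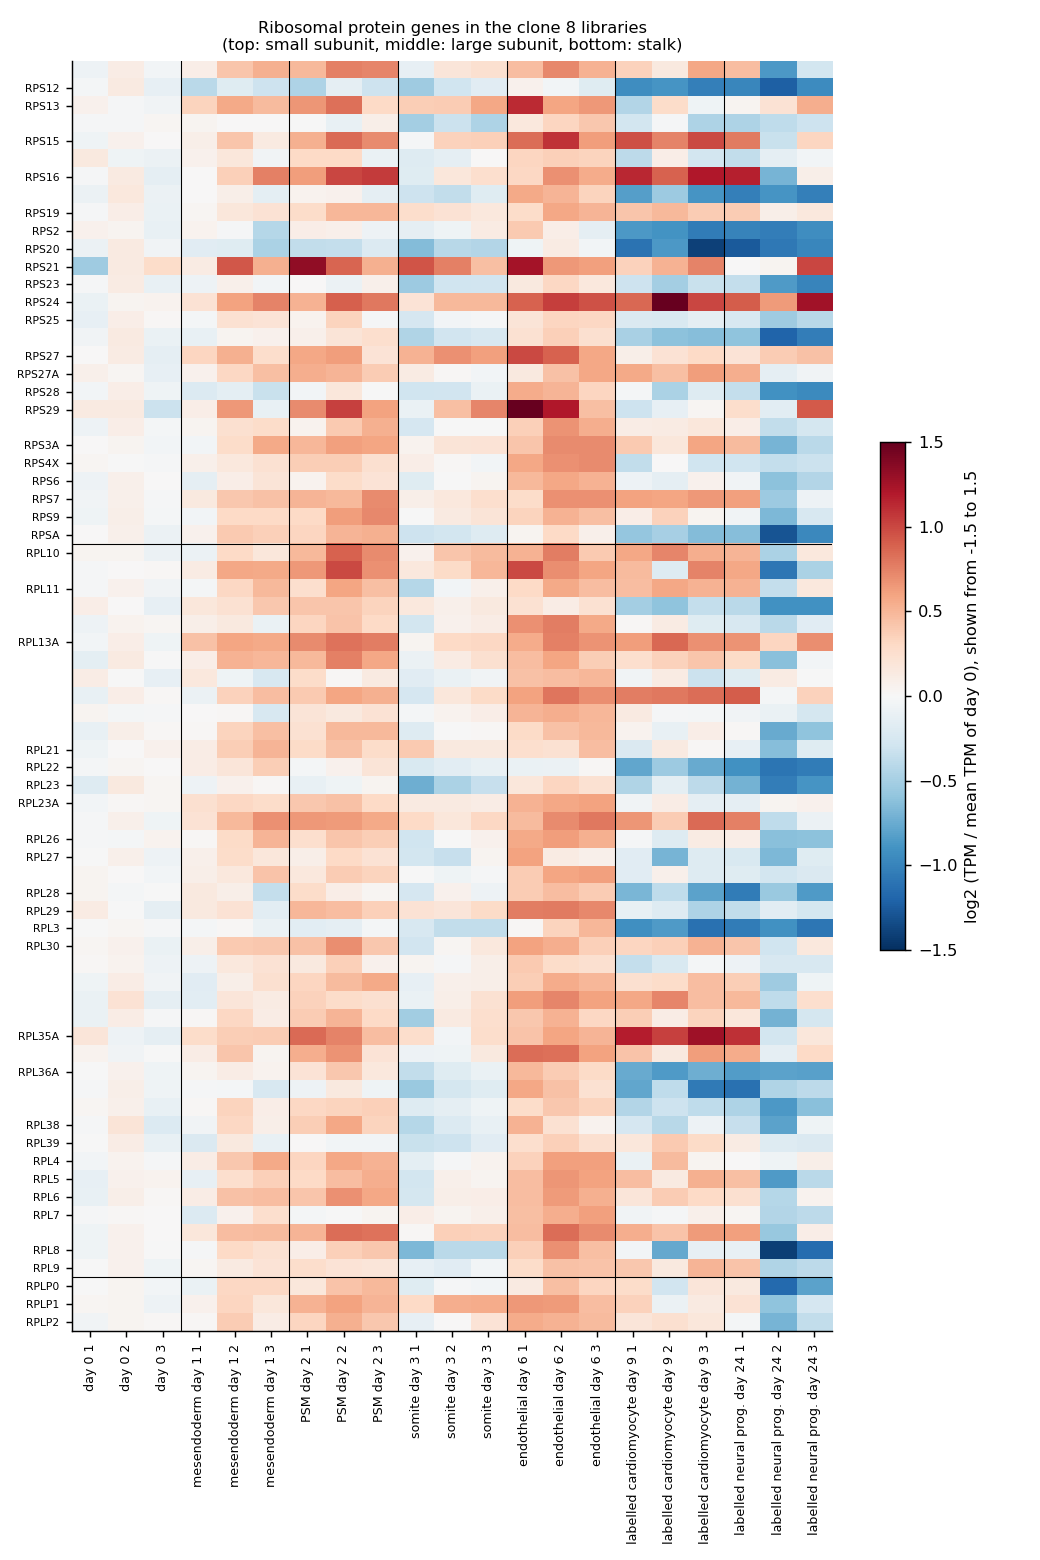
Log2 of TPM over the mean TPM of day 0 (colour, red higher and blue lower, drawn between -1.5 and 1.5) for 71 of the 76 ribosomal protein genes that are not paralogs (rows, those named in the text labelled) in the 21 clone 8 libraries (columns). PSM and endothelial columns are mostly red and somite columns pale. The column labelled neural progenitor 1 resembles those labelled cardiomyocyte 1 and 3, and the other 2 neural columns are mostly blue.

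The nucleolar list had medians of 0.42, -0.59 and -1.09 in the successive daily steps. Its sign differed from that of the member medians only from day 1 to day 2. The 13 translation factors had medians of 0.30, 0.17 and -0.52 in these steps, and the 3 ribosomal proteins outside the symbol rule 0.41, 0.12 and -0.54. Nucleolar assembly genes had 1 call higher on day 1 (WDR12, 1.02 ± 0.19), against 5.53% of all genes. From day 1 to day 2, 9 of 32 were lower, where 7.39% of all genes were called in either direction. From day 2 to day 3, 22 of 32 were lower, against 11.2% of all genes, with a median of -1.09. NOP2, a ribosomal RNA methyltransferase, had -1.81 ± 0.24 and RRS1, which brings the 5S particle into the large subunit, -1.80 ± 0.23. On day 3 against day 0 the ribosomal protein genes were near their starting level. There 23 of the 32 nucleolar genes were lower, against 11.3% of all genes, with a median of -1.22. Of the 76 mitochondrial ribosomal protein genes 16 were lower from day 2 to day 3, against 11.2% of all genes, and 8 from day 0 to day 3, against 11.3%.

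By mean TPM, endothelial cells were the highest clone 8 group for 50 of 82 members, and PSM for 14. Endothelial cells and PSM were not tested against each other. Their shares of expected counts were close, 7.59% ± 0.519 and 7.44% ± 0.725. In endothelial cells against day 0, 75 of 82 members had a log2 difference above 0, with a median of 0.51 beside 0.03 over all genes. By the test 14 were higher, against 11.6% of all genes. None was lower. They comprised 6 large subunit genes, 6 small subunit genes and the paralogs RPL22L1 and RPL10L. By TPM all endothelial libraries were above all day 0 libraries for 70 members, against 31.0% of all genes at a mean of at least 1 TPM.

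RPS29 was at 324, 323 and 235 TPM on day 0 and at 960, 676 and 402 TPM in endothelial cells, a log2 difference of 1.23 ± 0.36 (adjusted p = 0.024). RPS24 was at 2651, 2935 and 2943 TPM and then at 5257, 5839 and 5522 TPM, with 1.01 ± 0.25 (adjusted p = 0.0094). Neither gene overlapped between the groups. RPS27, at 576, 629 and 523 TPM and then at 1143, 1060 and 858 TPM, had 0.85 ± 0.21, and RPL29, at 979, 897 and 821 TPM and then at 1534, 1543 and 1485 TPM, had 0.80 ± 0.18. RPL22L1 was at 335, 355 and 307 TPM and then at 532, 458 and 522 TPM, with 0.63 ± 0.17. The parent RPL22 had -0.02 ± 0.23 and did not pass.

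Without the 2 doubted libraries 57 members were higher in endothelial cells, against 24.3% of all genes, and 2 were lower, against 20.8%. All 14 calls stood in that fit. Without day 0 library 1, 2 or 3 the first fit gave 6, 7 and 5 calls, and without endothelial library 1, 2 or 3 it gave 10, 7 and 9. Of 13 translation factors 3 were higher, against 11.6% of all genes, and none lower. Among the higher was EEF1A1, the carrier of aminoacyl-tRNA (0.76 ± 0.22), and RACK1 was higher by 0.47 ± 0.15. Nucleolar assembly genes had the opposite sign, with none of 32 higher and a median of -0.72. Of these, 15 were lower, a count given without the share of all genes lower in that fit. Without the doubted libraries 9 translation factors were higher, against 24.3% of all genes, and 26 nucleolar genes lower, against 20.8%. MYBBP1A had -1.59 ± 0.31 and RRP12 -1.54 ± 0.27.

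In the cells labelled cardiomyocyte members were called in both directions, and the balance changed when the 2 doubted libraries were left out. Against day 0, 12 were higher, against 22.9% of all genes, and 9 lower, against 18.8%, with a median of 0.24 beside 0.20 over all genes. With TMM scaling computed without the ribosomal protein genes the split was 8 higher and 10 lower. On log2(TPM + 1) with limma it was 15 and 18. The shares of all genes in these alternative fits are not given here. Without the 2 doubted libraries 42 were higher, against 30.3% of all genes, and 10 lower, against 31.4%, with a median of 0.45 beside -0.04. All 21 calls stood in that fit. Without cardiomyocyte library 2 alone the calls were 28, without cardiomyocyte library 3 they were 14, and without cardiomyocyte library 1 or day 0 library 1, 2 or 3 they were 12 or 13.

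RPS24 was at 5170, 9637 and 5680 TPM in the libraries labelled cardiomyocyte 1, 2 and 3, beside 2651, 2935 and 2943 TPM on day 0. Its log2 difference was 1.43 ± 0.25 (adjusted p = 0.0003), and 1.36 ± 0.22 without the doubted libraries. RPS16, whose tail reaches the peptidyl-tRNA site, was at 3175, 2660 and 3328 TPM beside 1430, 1587 and 1322 TPM, with 1.34 ± 0.48, and 1.58 ± 0.25 without the doubted libraries. RPL35A (chr13:134588288-134591873) was at 1609, 1450 and 1726 TPM beside 810, 680 and 652 TPM, with 1.32 ± 0.38, and 1.55 ± 0.16 without them. The lowest cardiomyocyte library of RPS24, RPS16 and RPL35A was above the highest day 0 library, and RPS15 had 1.16 ± 0.36. On the other side RPS20, at 846, 1003 and 690 TPM beside 1715, 1997 and 1755 TPM, had -0.91 ± 0.17 (adjusted p = 0.00056) without overlap. RPL3, of the peptidyl transferase region, had -0.74 ± 0.20 and RPS12 -0.72 ± 0.24. Among the calls, 7 small subunit genes were higher and 6 lower, and 5 large subunit genes were higher and 3 lower.

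In the cells labelled neural progenitor the members were mostly lower. Against day 0, 20 were lower, against 19.0% of all genes, and 2 higher, against 23.8%, with a median of -0.26 beside 0.20 over all genes. Without the 2 doubted libraries 65 were lower, against 31.8% of all genes, and 2 higher, against 32.0%, with a median of -0.73 beside 0.00. All 22 calls stood in that fit. Without neural progenitor library 1 alone 60 were lower and 1 higher, counts given without the share of all genes in that fit. Members with large negative differences were RPS20 (-1.21 ± 0.18), RPS12 (-1.12 ± 0.24), RPL3 (-1.11 ± 0.20) and RPL22 (-1.08 ± 0.23).

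RPS20 was at 761, 866 and 929 TPM in the libraries labelled neural progenitor 1, 2 and 3, beside 1715, 1997 and 1755 TPM on day 0, without overlap. RPL8, a protein of the peptidyl transferase centre, was at 1939, 787 and 940 TPM beside 2006, 2198 and 2091 TPM. Library 1 lay close to day 0 and the other 2 well below it. The log2 difference was -0.72, which did not pass, and -1.67 ± 0.20 without the doubted libraries (adjusted p = 1.88e-07). RPS27L was at 120, 37.5 and 35.0 TPM beside 145, 146 and 135 TPM, with -0.99, which did not pass, and -2.33 ± 0.21 without the doubted libraries. RPSA was at 1756, 1113 and 1394 TPM beside 2745, 2881 and 2574 TPM, with -0.97 ± 0.28, and -1.51 ± 0.19 without them. The members higher were RPL10L, whose day 0 libraries were all at 0, and RPS24. RPL10L rested on 11 counts over the group. It was at 0 in the library labelled neural progenitor 2, and its ratio to RPL10 was 0.0912% in library 1 and 0.532% in library 3, the shallowest of all libraries. RPS24 was at 5336, 4423 and 6786 TPM, higher by 0.86 ± 0.25 (adjusted p = 0.011), and by 0.59 ± 0.22 without the doubted libraries. The doubted library labelled cardiomyocyte 2 had 9637 TPM of RPS24, the highest of all libraries for that gene. RPL10, RPS7 and RPS27A had log2 differences above 0 that did not pass with all libraries and of -0.52, -0.68 and -0.48 without the doubted ones.

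Nucleolar assembly genes were lower in both labelled groups, 24 of 32 in cardiomyocytes, against 18.8% of all genes, and 29 of 32 in neural progenitors, against 19.0%. Without the doubted libraries 25 and 32 were lower, against 31.4% and 31.8%. None was higher. Mitochondrial ribosomal proteins had 4 of 76 higher and 7 lower in cardiomyocytes, against 22.9% and 18.8% of all genes, and 2 higher and 18 lower in neural progenitors, against 23.8% and 19.0%. Without the doubted libraries cardiomyocytes had 27 higher and 8 lower, against 30.3% and 31.4%, and neural progenitors had 1 higher and 64 lower, against 32.0% and 31.8%.

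**Figure D4:**
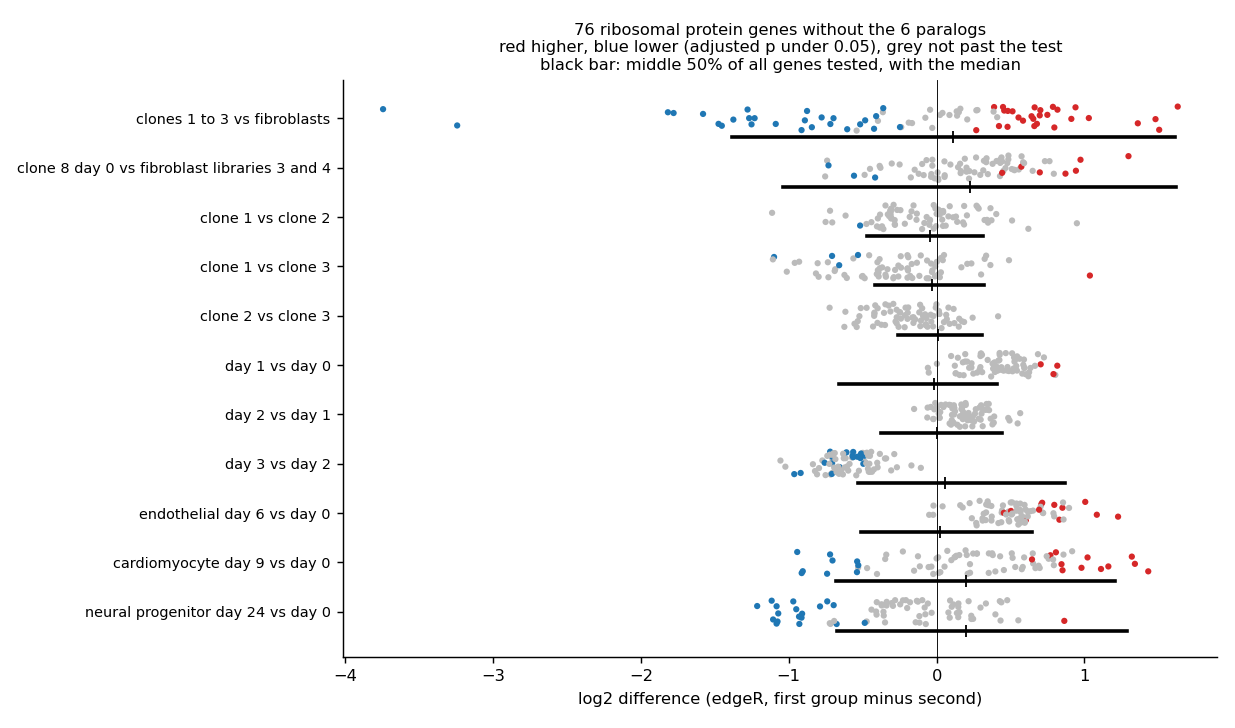
Log2 difference by edgeR (x axis) of the 76 ribosomal protein genes without the paralogs, 1 point per gene, in 11 comparisons (y axis). Red points are higher and blue points lower at an adjusted p under 0.05, and the black bar spans the middle 50% of all genes tested with the median as a tick. The members form narrow bands off 0 on day 1 against day 0, on day 3 against day 2 and in endothelial cells, and spread to both sides in clones against fibroblasts.

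The level of each paralog relative to its parent varied between groups, given here as a description with no test. RPL26L1 made 2.05% ± 1.51 of the TPM of RPL26 in fibroblasts, 0.714% being the lowest and 3.60% the highest library. In clones 1, 2 and 3 it made 11.4% ± 0.696, 10.4% ± 2.02 and 9.57% ± 1.63, and on day 0 of clone 8 it made 9.63% ± 0.956. Every iPSC library was above every fibroblast library in this ratio. Of the clone 8 groups endothelial cells had the lowest mean, 4.88% ± 0.0706, and the libraries labelled neural progenitor 1, 2 and 3 had 5.74%, 10.9% and 9.66%. RPL7L1 made 3.00% and 2.74% of RPL7 in fibroblast libraries 1 and 2 and 7.69% and 6.56% in libraries 3 and 4, a mean of 5.0% ± 2.5. It made 14.1% ± 1.02 in clone 1, 10.7% ± 2.28 in clone 2 and 9.84% ± 0.419 in clone 3. On day 0 of clone 8 it made 7.51% ± 0.316, and these libraries (7.21% to 7.84%) overlapped fibroblast library 3. Its lowest group mean was 4.53% ± 0.307 in endothelial cells, though fibroblast libraries 1 and 2 were lower.

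RPL22L1 went another way. It made 8.17% ± 4.63 of RPL22 in fibroblasts, and 2.72% ± 0.902, 4.63% ± 1.17 and 3.75% ± 0.954 in clones 1, 2 and 3. In clone 8 it made 13.1% ± 0.913 on day 0, 16.4% ± 1.41 in PSM, 10.1% ± 1.13 in somite cells and 20.6% ± 1.59 in endothelial cells. All clone 8 libraries were above all libraries of clones 1 to 3, groups that were fitted apart and not tested against each other. Fibroblast libraries 3 and 4, which share the implied length ratio of clone 8, were likewise above libraries 1 and 2. The part of library type in this gap was not tested. RPS27L made 5.09% and 5.34% of RPS27 in fibroblast libraries 1 and 2 and 25.3% and 19.8% in libraries 3 and 4. It made 58.0% ± 12.3 in clone 1, 41.4% ± 7.14 in clone 2 and 49.3% ± 4.33 in clone 3. It made 24.7% ± 1.36 on day 0 of clone 8 and 10.6% ± 1.1 in endothelial cells. The 2 libraries against their labels had 6.2% (labelled cardiomyocyte 2) and 18.2% (labelled neural progenitor 1).

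RPL10L had no count in the 3 day 0 libraries of clone 8. Its summed counts were 48 on day 1, 82 in PSM, 92 in somite cells, 21 in endothelial cells, 4 in labelled cardiomyocytes and 11 in labelled neural progenitors. In CPM, and against a floor of 3 counts over the day 0 group, that is at least 17.8-fold, 36.8-fold, 48.3-fold, 7.69-fold, 1.96-fold and 5.54-fold higher. The libraries labelled cardiomyocyte 1 and neural progenitor 2 were at 0. These bounds cover counting error only. The levels stayed at or under 14.05 TPM, beside 1141 to 2253 TPM of RPL10 on days 0 to 3, and reads shared with RPL10 cannot be told from RPL10L here. RPL3L, known from heart and skeletal muscle in the mouse, was at 2.63, 0.350 and 3.02 TPM in the libraries labelled cardiomyocyte and at 2.94, 1.11 and 6.04 TPM in those labelled neural progenitor. It was at 0.760 to 1.16 TPM on day 0, and it passed no test in clone 8.

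**Figure D5:**
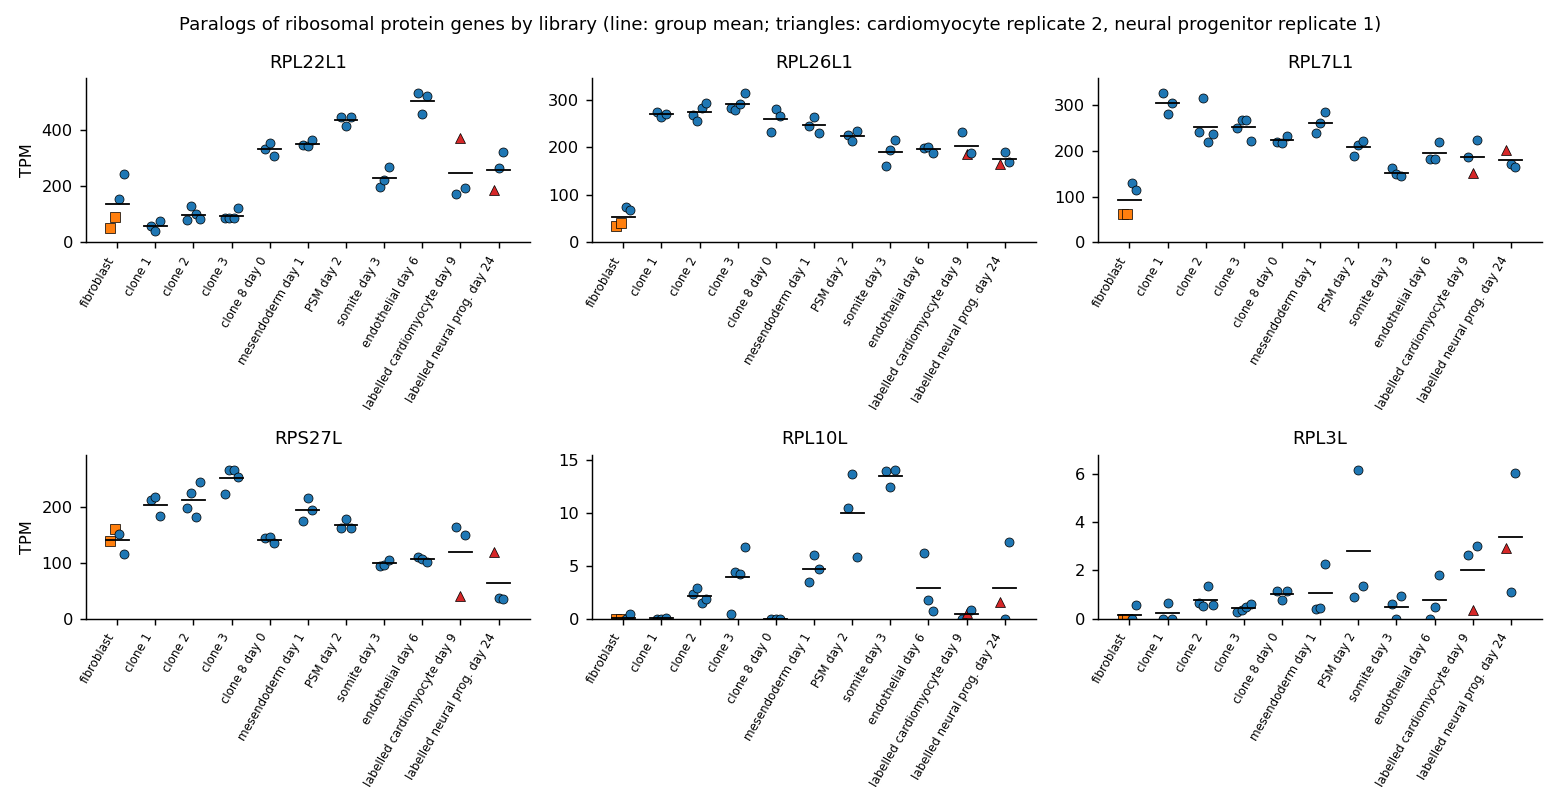
TPM (y axis) of the 6 paralogs of ribosomal protein genes in the 11 groups (x axis), 1 point per library, with a line at the group mean. Squares are fibroblast libraries 1 and 2, and triangles are the 2 libraries whose markers go against their labels. RPL26L1 and RPL7L1 are lowest in fibroblasts, RPL22L1 is highest in endothelial cells, and RPL10L and RPL3L stay at or under 14.05 TPM.

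The summed TPM of large subunit genes over that of small subunit genes lay between 1.04 and 1.46 over the 36 libraries. It was 1.04 to 1.23 in the fibroblasts, 1.36 to 1.46 in clones 1 to 3 and 1.28 to 1.37 from day 0 to day 3 of clone 8.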

How the data were processed

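Gene levels came from 36 bulk RNA-seq libraries of total RNA in 11 groups, assigned from the sample labels. The expected counts and the TPM values per gene are those the authors deposited, made with RSEM 1.2.3, Bowtie 1.2.3, bcl2fastq and the Sscrofa11.1 build, as named in the submitters' processing notes. Strand is not given in the sources used here. RSEM divides reads that fit several genes between them, so near copies such as RPL10 and RPL10L can trade reads, and TPM depends on the transcript length RSEM assumed. Each of the 36 columns carried a sample of the study, and no libraries agreed within sampling noise. Clone 3 libraries 2 and 3 were much closer to each other than the other pairs of that clone. Their chi-square per degree of freedom was 5.00, beside 44.6 to 66.8 in those pairs. Whether they share a preparation was not tested, and the spread within clone 3 may be too small.

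The estimated counts were rounded and fitted with edgeR 4.0.16 (TMM, filterByExpr with a minimum count of 10, quasi-likelihood test, Benjamini-Hochberg over all genes, threshold 0.05) in R 4.3.3. Fibroblasts and clones 1 to 3 shared one fit and the clone 8 groups another. An SE is the log2 difference over the root of the F value. The steps were tested on simulated data. TPM per library, shares of TPM and paralog ratios were computed in Python 3.11.15 with pandas 2.3.3. Alternatives were DESeq2 1.42.0, limma 3.58.1 on log2(TPM + 1) and log2(TPM + 0.1), RLE scaling, TMM without the ribosomal protein genes, no filter, fits of only the groups compared, a replicate block, leaving out libraries, and the fibroblast pairs apart.

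Members, lists and tests were chosen with earlier results of these data known. Named by rule were, per comparison, the 5 members past the threshold with the largest difference each way, and in any case the paralogs, the stalk genes, RPL5, RPL11, RPSA, RPS27A and the 5 highest and 5 lowest members by TPM. Other members were named after their values were seen, and a few that meet the rule are not reported here by name, although they stay in every count. Same-numbered libraries deviated together with correlations above 0.1 in every pair in no comparison, so the numbers were not taken as pairs. Intervals and floors cover counting error only.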

Additional observations from a re-analysis of the deposited data

Results flagged for a closer look

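In groups of 4 libraries, a library was singled out where its gap to the nearest of the others was more than 0.829 of the group's range. Of 141 such groups of a named gene, 14 held one, and chance gives about 1 in 20. The causes were not tested.

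In clone 3 the first library stood apart for 5 genes. RPL38 was at 484.8 TPM there and at 1048 to 1160 TPM in the others, and RPS13 at 393.9 TPM (others 576 to 608). It was the highest of its group for RPS16 at 1860 TPM (others 1314 to 1392), RPS9 at 2559 TPM (others 1826 to 1829) and RPL28 at 477.4 TPM (others 444 to 448). RPL22L1 was at 121.4 TPM in the fourth clone 3 library and at 85.4 to 88.2 TPM in the others.

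In clone 2 the fourth library was highest for RPL5 at 6198 TPM (others 4046 to 4229), RPS24 at 4412 TPM (others 2488 to 2769) and RPL30 at 2277 TPM (others 1573 to 1654). RPL35A was at 865 TPM in the second library (others 743 to 756) and RPL3L at 1.35 TPM in the third (others 0.52 to 0.66). Among fibroblasts RPL23 was at 6372 TPM in library 2 (others 5195 to 5359). RPL3L at 0.58 TPM and RPL10L at 0.42 TPM appeared in fibroblast library 4 and were listed at 0 in the others.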

How the results depend on the processing

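With only the groups compared in the fit, the count of members past the threshold was 11 for clone 1 against clone 2, 19 for clone 1 against clone 3, 9 for clone 2 against clone 3, 26 for day 1 against day 0, 74 for day 3 against day 2, 29 for day 3 against day 0, 68 for endothelial cells, 12 for neural progenitors and 49 for clone 8 day 0 against fibroblast libraries 3 and 4. With the fibroblast pairs as separate groups the clone counts were 18, 27 and 6. Without the 2 libraries whose markers go against their labels the counts were 40 (day 1 against day 0), 2 (day 2 against day 1), 72 (day 3 against day 2), 16 (day 3 against day 0), 59 (endothelial), 52 (cardiomyocyte), 67 (neural) and 37 (clone 8 day 0 against fibroblast libraries 3 and 4). DESeq2 gave 6, 12 and 1 for the clone pairs in the same order and 8 for day 1 against day 0. On log2(TPM + 1) limma gave 6 for clone 1 against clone 2, 2 for day 1 against day 0, 9 for day 3 against day 0, 37 for endothelial cells and 33 for cardiomyocytes, and on log2(TPM + 0.1) 6, 2, 8, 36 and 33. With no filter the counts were 2 (day 1 against day 0), 11 (day 3 against day 2) and 3 (day 3 against day 0), and with RLE scaling 3 for the last. The share of all genes called moves between fits too. For lower genes from day 2 to day 3 it was 11.2% in the first fit and 23.0% without the doubted libraries. Counts in this section are given without that share, so they show how calls depend on the fit and are no result about the members.

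The median log2 difference moved to 0.55 for clones 1 to 3 against fibroblast libraries 3 and 4 alone. With either pseudocount in limma it moved to 0.17 for day 1 against day 0 and to -0.39 for day 3 against day 2, and for clone 2 against clone 3 it turned to 0.0093. Single genes that turned were RPL22L1 (0.18) against fibroblast libraries 1 and 2, RPS21 (0.59), RPL26 (0.41) and RPL11 (0.12) against libraries 3 and 4, and in neural progenitors without the 2 doubted libraries RPL10 (-0.52), RPS27A (-0.48) and RPS7 (-0.68), the last at -0.75 without neural progenitor library 1 alone. The causes were not tested. Of the values of named genes, leave-one-out fits apart, 2865 kept direction and side of the threshold, 248 came past it and 69 lost it.

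Leaving out 1 library at a time gave 56 to 61 calls for clones 1 to 3 against fibroblasts, 0 to 2, 2 to 5 and 0 to 3 for the clone pairs, 1 to 6 for day 1 against day 0, 0 for day 2 against day 1, 2 to 12 for day 3 against day 2, 1 to 3 for day 3 against day 0, 5 to 10 for endothelial cells, 12 to 28 for cardiomyocytes, 16 to 61 for neural progenitors (median -0.80 to -0.11), 5 to 8 for clone 8 day 0 against fibroblast libraries 3 and 4 and 33 to 39 for the fibroblast pairs.

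With the replicate number as a block the counts were 11 for day 3 against day 2, 3 for day 3 against day 0 and 57 for clones 1 to 3 against fibroblasts. Same-numbered libraries correlated between -0.12 and 0.36 in their deviations. The correlations were all above 0 for day 1 against day 0 (0.07 to 0.24) and day 2 against day 1 (0.09 to 0.36). They were also above 0 for day 3 against day 2 (0.01 to 0.19) and endothelial cells against day 0 (0.02 to 0.09). For neural progenitors all were below 0 (-0.07 to -0.03), and the other comparisons had values on both sides of 0. Whether same-numbered libraries came from one culture was not tested.

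As a share of expected counts the members made 3.26% in fibroblasts, 4.36%, 4.91% and 5.16% in clones 1, 2 and 3, 5.30% on day 0, 6.33% on day 1, 7.44% in PSM, 5.17% in somite cells, 7.59% in endothelial cells, 6.24% in cardiomyocytes and 4.38% in neural progenitors. Without the 5 most abundant members the share of TPM was 9.99%, 11.3% and 11.5% in clones 1, 2 and 3, 12.3% on day 0, 13.9% on day 1, 15.9% in PSM, 12.2% in somite cells, 16.9% in endothelial cells and 13.1% in cardiomyocytes. The shallowest library, of neural progenitors, held 1845333 counts, which limits RPL10L and RPL3L most.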
